A study of Mus musculus with 6 samples.

Results

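Transcript levels of 10 genes of the BCL-2 family were examined in mouse dendritic cells exposed to calcium hydroxide nanoparticles. The genes were chosen by name from the 23398 in the deposited table: Bcl2, Bcl2l1, Mcl1 and Bcl2a1b, which hold cells alive, Bax and Bak1, which carry out the killing step, and Bcl2l11, Bid, Bbc3 and Pmaip1, the BH3-only genes that trigger it. All 10 were found once each and passed the filter on low values. The dendritic cells had been grown from mouse bone marrow in DMEM with serum. They received Ca(OH)2 nanoparticles (3 libraries) or the vehicle (3 libraries) for 12 hours, and RNA was sequenced in bulk. The labels name no dose, strain, sex, age or culture cytokine, and do not say whether the libraries of a group came from separate mice or cultures. The p-values therefore measure the spread between these libraries, which may be technical.

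BCL-2 family proteins decide at the outer mitochondrial membrane whether a cell enters the mitochondrial route to apoptosis. BAX and BAK form pores that release cytochrome c, the pro-survival proteins bind and hold them in check, and BH3-only proteins set them free by occupying the pro-survival proteins or by activating BAX and BAK directly. In dendritic cells the balance among these proteins is known to help set how long a cell lives after it has been activated, and A1, the product of the Bcl2a1 genes, is known as a target of NF-kappaB in activated leukocytes.

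Bcl2a1b is a member of a cluster of near-identical genes on chromosome 9, and its reads cannot be assigned without regard to its neighbours. The copies in the table are Bcl2a1a (chr9:88956900-88962419, plus strand), Bcl2a1b (chr9:89199209-89207827, plus strand) and Bcl2a1d (chr9:88723285-88731914, minus strand), in GENCODE M21 on GRCm38. Bcl2a1c was not analysed here. The first 90 coding bases are printed to compare the copies, and capitals mark the 6 positions at which they differ. Over all 516 coding bases there were 12 such positions, so the printed stretch is less alike than the rest.
Bcl2a1a, chr9:88957051-88957140, plus strand: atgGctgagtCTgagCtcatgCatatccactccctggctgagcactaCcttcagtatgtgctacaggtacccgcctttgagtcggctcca
Bcl2a1b, chr9:89199360-89199449, plus strand: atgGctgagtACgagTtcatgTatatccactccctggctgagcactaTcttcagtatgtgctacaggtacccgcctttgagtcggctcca
Bcl2a1d, chr9:88731630-88731719, minus strand: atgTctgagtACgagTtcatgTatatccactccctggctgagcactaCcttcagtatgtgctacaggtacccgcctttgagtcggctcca
Over the 516 coding bases, Bcl2a1b differed from Bcl2a1d at 6 positions and from Bcl2a1a at 11, which is 98.8% and 97.9% identity. Of the stretches of 100 bases in the Bcl2a1b transcript, 31.1% were also present letter for letter in another copy. The corresponding shares were 43.5% for Bcl2a1a and 54.7% for Bcl2a1d. These shares depend on the length chosen: for Bcl2a1b it was 57.6% with 50 bases and 14.2% with 150 bases. Levels of the single copies are therefore uncertain, since the handling of reads that fit several genes is not given in the sources used here, and the sum of the copies is given beside them.

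The stretches upstream of the start sites are shown for the family genes that passed the test in every analysis that gave a value: Mcl1 and the Bcl2a1 copies, higher with nanoparticles, and Bcl2, lower. They are RefSeq promoter sequences on GRCm38.p6, cut to the bases that lie upstream of the start in both RefSeq and GENCODE. Capitals mark a kappaB match in Mcl1 and an AP-1 match in the Bcl2a1 copies.
Mcl1, chr3:95658471-95658720, plus strand: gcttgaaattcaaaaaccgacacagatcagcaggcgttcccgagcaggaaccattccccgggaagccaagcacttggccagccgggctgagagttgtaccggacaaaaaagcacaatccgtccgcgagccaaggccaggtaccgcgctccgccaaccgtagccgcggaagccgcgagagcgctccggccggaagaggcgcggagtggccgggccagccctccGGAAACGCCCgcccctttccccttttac
Bcl2a1d, chr9:88731915-88732100, minus strand: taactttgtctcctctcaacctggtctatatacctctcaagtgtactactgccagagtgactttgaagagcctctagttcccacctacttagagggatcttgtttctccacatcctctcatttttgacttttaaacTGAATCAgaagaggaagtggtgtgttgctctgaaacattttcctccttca
Bcl2a1a, chr9:88956670-88956899, plus strand: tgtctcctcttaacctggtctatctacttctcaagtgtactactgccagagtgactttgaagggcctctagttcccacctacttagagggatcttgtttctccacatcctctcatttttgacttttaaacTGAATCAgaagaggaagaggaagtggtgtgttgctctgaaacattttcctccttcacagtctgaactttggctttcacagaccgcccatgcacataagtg
Bcl2a1b, chr9:89199023-89199208, plus strand: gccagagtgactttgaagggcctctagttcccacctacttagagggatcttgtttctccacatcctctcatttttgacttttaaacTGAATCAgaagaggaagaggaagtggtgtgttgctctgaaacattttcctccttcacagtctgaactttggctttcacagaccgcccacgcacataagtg
Bcl2, chr1:106714291-106714540, minus strand: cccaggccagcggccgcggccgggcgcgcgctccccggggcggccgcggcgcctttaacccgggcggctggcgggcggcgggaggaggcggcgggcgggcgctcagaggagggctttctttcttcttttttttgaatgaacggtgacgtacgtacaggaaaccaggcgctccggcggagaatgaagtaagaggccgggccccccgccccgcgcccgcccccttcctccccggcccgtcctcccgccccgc
The motifs were searched on both strands in the 250 bases before each start site, for 9 of the 10 members and for all 32851 promoters in the RefSeq table. Start sites are those of RefSeq, and the shares are per promoter. A gene can have several start sites, and the kappaB and forkhead matches of Bbc3 came from different ones. A kappaB pattern (GGG and TTTCC with any 2 bases between them) lay in Mcl1 (28 to 19 bases before the start), Bcl2l1 and Bbc3, against 1.41% of all promoters. A wider kappaB consensus, which can overlap it, lay in Bcl2l1 and Bbc3, against 3.90%. The AP-1 pattern TGANTCA lay in all 3 Bcl2a1 copies, against 6.75%, at a place where the copies have nearly the same sequence. The forkhead pattern TGTTTAC lay in Bcl2l11 and Bbc3, against 3.17%, and a single p53 decamer, which is only a part of a full p53 element, in Bax, against 7.13%. The pattern TGATGNAA, bound by ATF4 with CHOP, lay in Bcl2a1b, 40 to 33 bases before the RefSeq start, against 3.45%. That place lies past the GENCODE start and so is not in the stretch printed above. The interferon-response pattern (TTTC and TTTC with any 2 bases between them, 2.98% of promoters), the STAT pattern TTCNNNGAA (7.02%) and the cyclic AMP response pattern TGACGTCA (1.55%) were in none of these windows. A match describes letters and is not a measured binding site.

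Expression is given in FPKM, reads divided by transcript length in kilobases and by a size set for each library, so that levels can be compared between genes. Recovered read totals were 17283754 to 18220709 in the vehicle and 17793699 to 21978216 in the nanoparticle libraries, and single values of the 10 members rested on 80 reads (Bcl2 in nanoparticle library 1) to 16981 reads (Mcl1 in nanoparticle library 3). Nanoparticle library 1 stood apart. Among tested genes with a known transcript length, 1256 lay more than 1 log2 unit from the mean of the rest of the group in that library. The counts were 152 and 337 in nanoparticle libraries 2 and 3 and 36 to 47 in the vehicle libraries. The members' differences and the counts of calls are therefore given with and without it. Differences are on the scale log2(FPKM + 1), nanoparticle minus vehicle, with the moderated test of limma and Benjamini-Hochberg adjustment over all 10682 genes. A gene was called when its adjusted p was under 0.05.

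Transcripts of Mcl1, Bcl2a1b and Bak1 rose and those of Bcl2 fell in cells given nanoparticles, and the other 6 members did not pass the test. Thus 3 of 10 members were called higher, where 17.0% of all tested genes were, and 1 of 10 was called lower, where 16.2% were. In either direction 33.2% of all tested genes were called, so a count of 4 in 10 is near the background. The median difference of the members was 0.07, and that of all tested genes was -0.0010. Without nanoparticle library 1, 4 members were called higher and 2 lower, with Bax and Bcl2l11 added, while 64.8% of all tested genes were called, 34.3% higher and 30.5% lower. In bulk RNA, fewer cells of a type and less RNA per cell cannot be told apart.

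**Figure D1:**
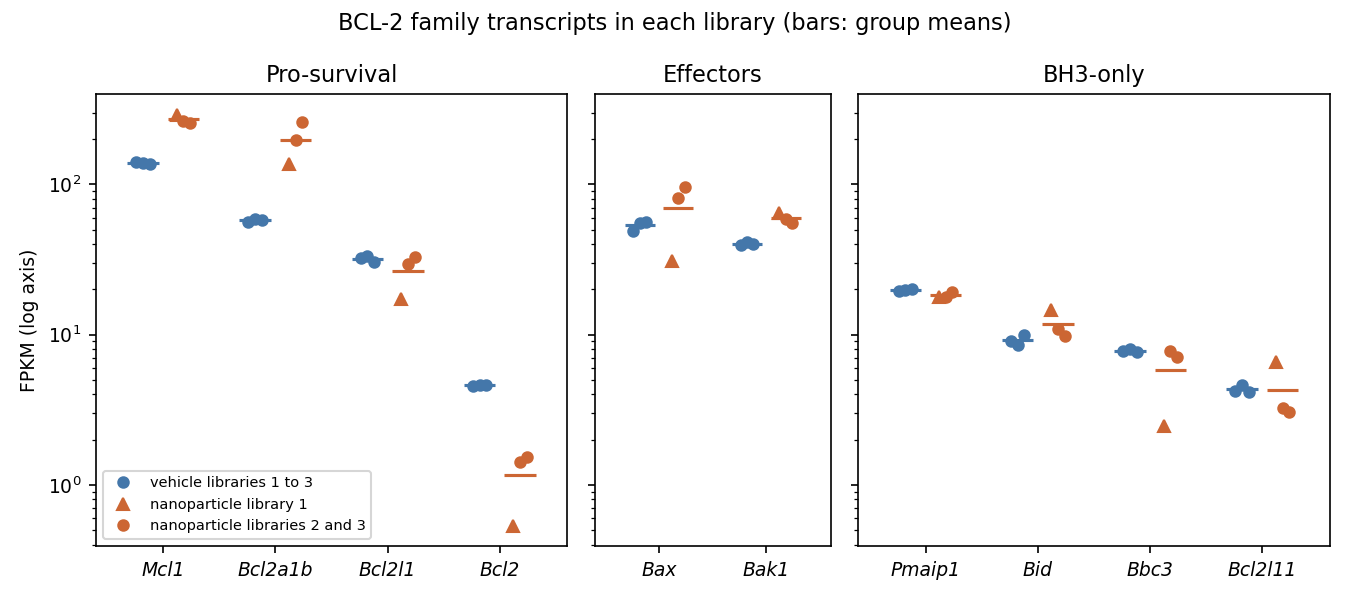
FPKM (log axis) of the 10 BCL-2 family members in each of the 3 vehicle and 3 nanoparticle libraries, 1 point per library, with nanoparticle library 1 drawn with its own symbol. Mcl1, Bcl2a1b and Bak1 lie higher in every nanoparticle library than in any vehicle library and Bcl2 lies lower, while Bax, Bbc3 and Bcl2l1 have nanoparticle library 1 far below the other nanoparticle libraries.

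Mcl1 (chr3:95658788-95663176, plus strand) encodes a short-lived pro-survival protein that binds BAK and many BH3-only proteins. Its level was 141, 138 and 137 FPKM in vehicle libraries 1 to 3 and 292, 263 and 258 FPKM in nanoparticle libraries 1 to 3. All nanoparticle libraries were higher than all vehicle libraries, and nanoparticle library 1 was close to the others. The mean went from 138.8 ± 1.91 to 270.7 ± 18.4 FPKM (SD, n = 3 each), a difference of 0.96 on the log2 scale (SE 0.11, 95% interval 0.68 to 1.23, adjusted p = 0.0015). Without nanoparticle library 1 the difference was 0.90 (adjusted p = 1.4e-05). By mean level Mcl1 was the most abundant of the 10 members in both groups. In nanoparticle library 3, however, Bcl2a1b stood slightly above it (260 against 258 FPKM). Bcl2a1d, a copy outside the 10 members, had a higher mean than Mcl1 in both groups (187.3 and 803.9 FPKM).

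Bcl2a1b, whose coding start is printed above, encodes A1, another short-lived pro-survival protein of leukocytes. It stood at 56.3, 58.5 and 57.7 FPKM in the vehicle libraries and at 136, 197 and 260 FPKM in the nanoparticle libraries. The groups did not overlap, and nanoparticle library 1 was the lowest of its group. The difference was 1.72 on the log2 scale (SE 0.24, 95% interval 1.15 to 2.29, adjusted p = 0.0025), and 1.96 without nanoparticle library 1 (adjusted p = 2.2e-05). A further uncertainty is that 401 exon bases of Bcl2a1b are shared with the annotated gene Gm29094 on the same strand.

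Both other Bcl2a1 copies rose as well. Bcl2a1a went from 106.2 ± 2.95 to 336.0 ± 101.1 FPKM (SD, n = 3 each; log2 difference 1.60, adjusted p = 0.0037). Bcl2a1d, the most abundant copy, went from 187.3 ± 12.0 to 803.9 ± 214.6 FPKM (log2 difference 2.06, adjusted p = 0.0011). Added together, the 3 copies stood at 339.5, 363.7 and 349.8 FPKM in the vehicle and at 921, 1444 and 1648 FPKM in the nanoparticle libraries. This sum, which depends little on how reads were divided among copies of similar length (817, 819 and 863 bases) but would still miss reads left out for fitting several genes, was higher in every nanoparticle library (log2 difference 1.89, SE 0.24, adjusted p = 0.0019, and 2.13 without nanoparticle library 1, adjusted p = 2.5e-06). Bcl2a1b made up 16.4% ± 0.261 of the sum in vehicle and 14.7% ± 1.07 in nanoparticle libraries (SD, n = 3 each), while Bcl2a1d made up 53.3% ± 1.69 and 60.3% ± 1.23.

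Bcl2 (chr1:106538178-106714274, minus strand), the pro-survival gene that gives the family its name, was scarce and fell. Its level was 4.55, 4.63 and 4.59 FPKM in the vehicle libraries and 0.535, 1.43 and 1.52 FPKM in the nanoparticle libraries. All nanoparticle libraries lay below all vehicle libraries, with nanoparticle library 1 the lowest. These values rested on 830, 841 and 878 reads in the vehicle and 80, 216 and 269 reads in the nanoparticle libraries. The difference was -1.41 on the log2 scale (SE 0.20, 95% interval -1.89 to -0.92, adjusted p = 0.0030), and -1.18 without nanoparticle library 1 (adjusted p = 3.0e-05). The addition of 1 FPKM understates the change of a gene this low, and with 0.1 added in its place the difference was -2.01. An opposite-strand gene, D630008O14Rik, shares 558 exon bases with Bcl2, and the strand setting of the counting is not given in the sources used here.

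Bcl2l1 (chr2:152780668-152831728, minus strand), which encodes BCL-XL, gave 32.3, 33.4 and 30.4 FPKM in the vehicle and 17.2, 29.6 and 32.8 FPKM in the nanoparticle libraries. The groups overlapped, and the single low value was that of nanoparticle library 1. The difference of -0.31 did not pass the test (SE 0.24, 95% interval -0.89 to 0.27, adjusted p = 0.365). Without nanoparticle library 1 it was -0.04 with an interval of -0.21 to 0.13.

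**Figure D2:**
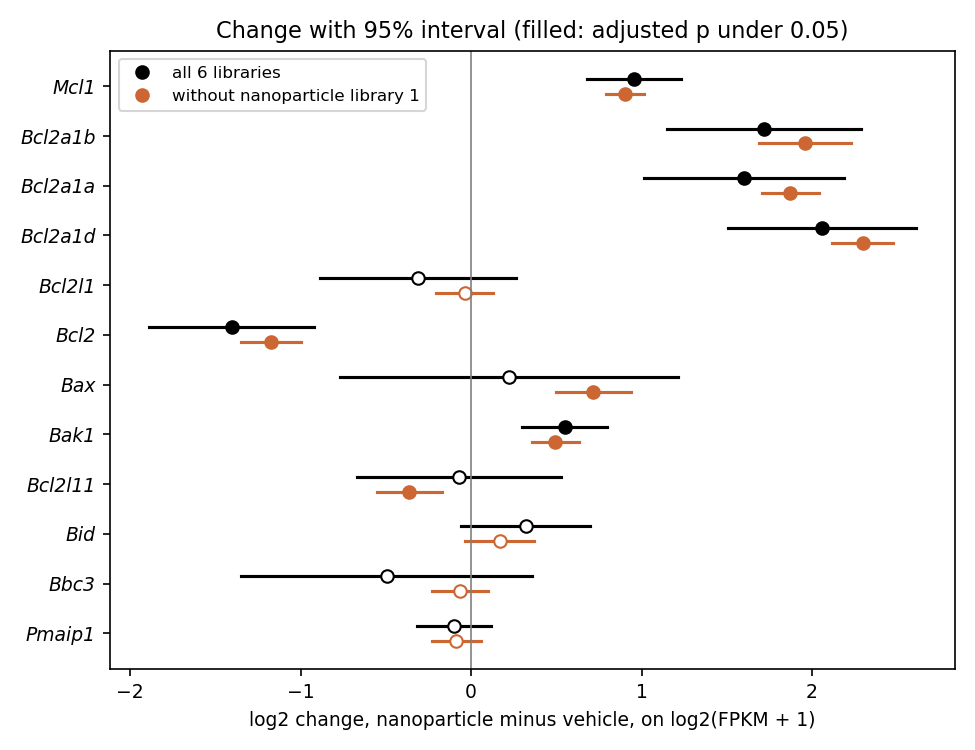
Log2 difference (nanoparticle minus vehicle, log2(FPKM + 1)) of each member and of Bcl2a1a and Bcl2a1d with its 95% interval from limma, over all 6 libraries and without nanoparticle library 1. The intervals of Mcl1, Bcl2a1b, Bak1 and Bcl2 leave out 0 in both analyses, and those of Bax and Bcl2l11 leave out 0 only without nanoparticle library 1.

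The effectors Bak1 and Bax differed in how firmly they could be read. Bak1 (chr17:27019810-27029009, minus strand), which encodes the pore-forming protein BAK, gave 39.5, 41.6 and 39.8 FPKM in the vehicle and 64.1, 59.2 and 55.3 FPKM in the nanoparticle libraries. All nanoparticle libraries were higher. The difference was 0.55 (SE 0.10, 95% interval 0.30 to 0.80, adjusted p = 0.0086), and 0.49 without nanoparticle library 1 (adjusted p = 4.1e-04). The call was lost without vehicle library 1 (adjusted p = 0.053) and without vehicle library 3 (adjusted p = 0.057), with the same direction. Exons of Ggnbp1 on the opposite strand overlap those of Bak1.

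Bax (chr7:45461697-45466898, minus strand), the other pore-forming effector, gave 49.2, 55.1 and 56.0 FPKM in the vehicle and 30.9, 81.4 and 95.9 FPKM in the nanoparticle libraries. Nanoparticle library 1 was below every vehicle library, and nanoparticle libraries 2 and 3 were above them. The difference over all libraries, 0.22, did not pass the test (SE 0.41, 95% interval -0.77 to 1.21, adjusted p = 0.718). Without nanoparticle library 1 it was 0.72 (SE 0.09, 95% interval 0.50 to 0.94) and passed (adjusted p = 6.4e-04), so the reading of Bax rests on whether that library is counted. The ratio of Bak1 to Bax was 0.756 ± 0.0461 in vehicle (SD, n = 3) and 2.07, 0.727 and 0.576 in nanoparticle libraries 1 to 3. Bax shares 192 exon bases with Gm45808 on the same strand.

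None of the 4 BH3-only members passed limma's test over all libraries, also at an unadjusted p under 0.05 and by limma-voom on recovered reads. Among all tested genes 33.2% were called at the adjusted threshold, so no call among 4 genes is not far from the background. Under other scalings, given below, Pmaip1 was called lower with both and Bbc3 with equal sums of FPKM. Bcl2l11 (chr2:128126038-128162547, plus strand), which encodes BIM, a BH3-only protein that binds all pro-survival members, gave 4.24, 4.61 and 4.12 FPKM in the vehicle and 6.58, 3.24 and 3.04 FPKM in the nanoparticle libraries. Nanoparticle library 1 lay above and nanoparticle libraries 2 and 3 lay below every vehicle library, the opposite order to Bax. The difference was -0.07 over all libraries (95% interval -0.67 to 0.53, adjusted p = 0.851), and -0.36 without nanoparticle library 1 (95% interval -0.55 to -0.17, adjusted p = 0.0067).

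Bbc3 (chr7:16308393-16318205, plus strand) encodes PUMA, a BH3-only protein known as a p53 target. It gave 7.77, 8.03 and 7.69 FPKM in the vehicle and 2.45, 7.77 and 7.11 FPKM in the nanoparticle libraries. Nanoparticle library 1 was far below the vehicle range, nanoparticle library 3 was slightly below it and nanoparticle library 2 was within it. The difference was -0.50 (95% interval -1.35 to 0.36, adjusted p = 0.329), and -0.07 without nanoparticle library 1 (95% interval -0.23 to 0.10, adjusted p = 0.418).

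Bid (chr6:120891930-120916853, minus strand), which links death receptors to mitochondria once caspase-8 has cut its product, gave 9.02, 8.57 and 9.89 FPKM in the vehicle and 14.6, 11.0 and 9.82 FPKM in the nanoparticle libraries. Nanoparticle libraries 1 and 2 were above the vehicle range and nanoparticle library 3 was within it. The difference was 0.32 (95% interval -0.06 to 0.70, adjusted p = 0.170), and 0.17 without nanoparticle library 1 (adjusted p = 0.122). Bid shares 628 exon bases with Bcl2l13 on the opposite strand. Pmaip1, on chromosome 18, encodes NOXA, which binds MCL-1 and A1. It gave 19.4, 19.7 and 20.2 FPKM in the vehicle and 17.9, 17.9 and 19.3 FPKM in the nanoparticle libraries. The nanoparticle libraries were all slightly lower, but the difference of -0.10 did not pass the test (95% interval -0.32 to 0.11, adjusted p = 0.430), nor did that of -0.09 without nanoparticle library 1 (adjusted p = 0.241).

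Counted by overlap alone, 3 members were higher in every nanoparticle library than in any vehicle library (Mcl1, Bcl2a1b and Bak1), 2 were lower (Bcl2 and Pmaip1) and 5 overlapped. Among all tested genes 25.9% were higher and 26.2% lower in this sense, 52.1% together, so the members' count of 5 in 10 is at the background.

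Ranked by level per length, the members formed nearly the same order in both groups. In vehicle libraries the order of mean FPKM was Mcl1, Bcl2a1b, Bax, Bak1, Bcl2l1, Pmaip1, Bid, Bbc3, Bcl2 and Bcl2l11, and only the last pair of neighbours overlapped. In nanoparticle libraries Bcl2 moved to the last place, below Bcl2l11. There the neighbours Mcl1 and Bcl2a1b, Bax and Bak1, Bcl2l1 and Pmaip1, and Bbc3 and Bcl2l11 overlapped across libraries.

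The relative amounts of the pro-survival transcripts differed between the groups. The summed level of the 4 pro-survival members was 232.9 ± 2.42 FPKM in vehicle and 496.3 ± 53.5 FPKM in nanoparticle libraries (SD, n = 3 each), with no overlap. That of the 2 effectors was 93.8 ± 4.40 and 128.9 ± 29.9 FPKM, and nanoparticle library 1 lay within the vehicle range of 88.7 to 96.7. That of the 4 BH3-only members was 41.1 ± 0.734 and 40.2 ± 1.22 FPKM, with overlap. The sum over all genes was also higher with nanoparticles, 324715 ± 3380 against 451827 ± 46790 FPKM, and the members' sums read against it. The pro-survival level leaves out Bcl2a1a and Bcl2a1d. It holds Bcl2a1b alone, which made up 16.4% of the 3 copies in vehicle and 14.7% in nanoparticle libraries. Mcl1 exceeded Bcl2 by 30.2 ± 0.657 times in vehicle (SD, n = 3) and by 545, 184 and 169 times in nanoparticle libraries 1 to 3. Mcl1 exceeded Bcl2l1 by 4.35 ± 0.195 times in vehicle and by 17.0, 8.88 and 7.87 times in the nanoparticle libraries. The sums and ratios of the members were not tested, since the members are listed genes and not replicates.

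**Figure D3:**
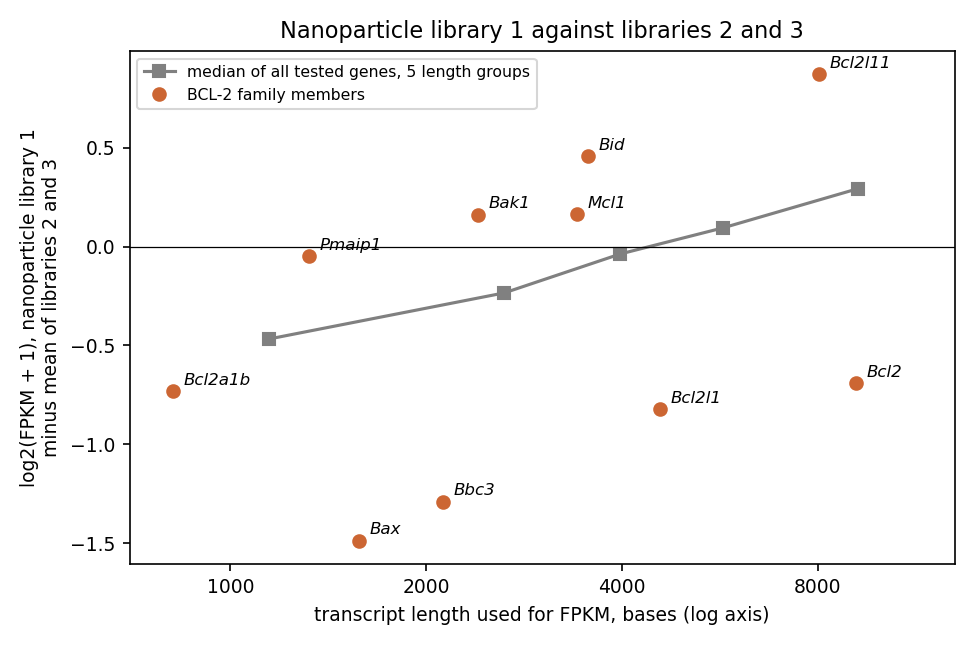
Level in nanoparticle library 1 minus the mean of nanoparticle libraries 2 and 3, on log2(FPKM + 1), against the transcript length that gave whole reads, in bases (log axis; the merged exon length for all members but Pmaip1), for the 10 members (labelled points) and as the median of all tested genes in 5 groups of length (line). The line climbs from -0.47 for the shortest to 0.29 for the longest genes, while the members lie between -1.49 (Bax) and 0.87 (Bcl2l11).

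Members differed widely in where nanoparticle library 1 placed them relative to the other nanoparticle libraries. On the log2 scale Bax was lower in library 1 by a difference of -1.49, Bbc3 by -1.29, Bcl2l1 by -0.82, Bcl2a1b by -0.73 and Bcl2 by -0.69. Pmaip1 stood at -0.05, Bak1 and Mcl1 at 0.16 each, Bid at 0.46 and Bcl2l11 at 0.87. Over all tested genes this difference moved with transcript length: in 5 groups of nearly equal size the median was -0.47 for the shortest genes (54 to 1963 bases), -0.04 for the middle group and 0.29 for the longest (6991 to 41324 bases). Bax, with 1576 bases, and Bcl2l11, with 8029 bases, deviate in the direction of their length group and by more than its median, whereas Bcl2, with 9157 bases, deviates in the opposite direction. The part of transcript length or RNA quality in these deviations was not tested.

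**Figure D4:**
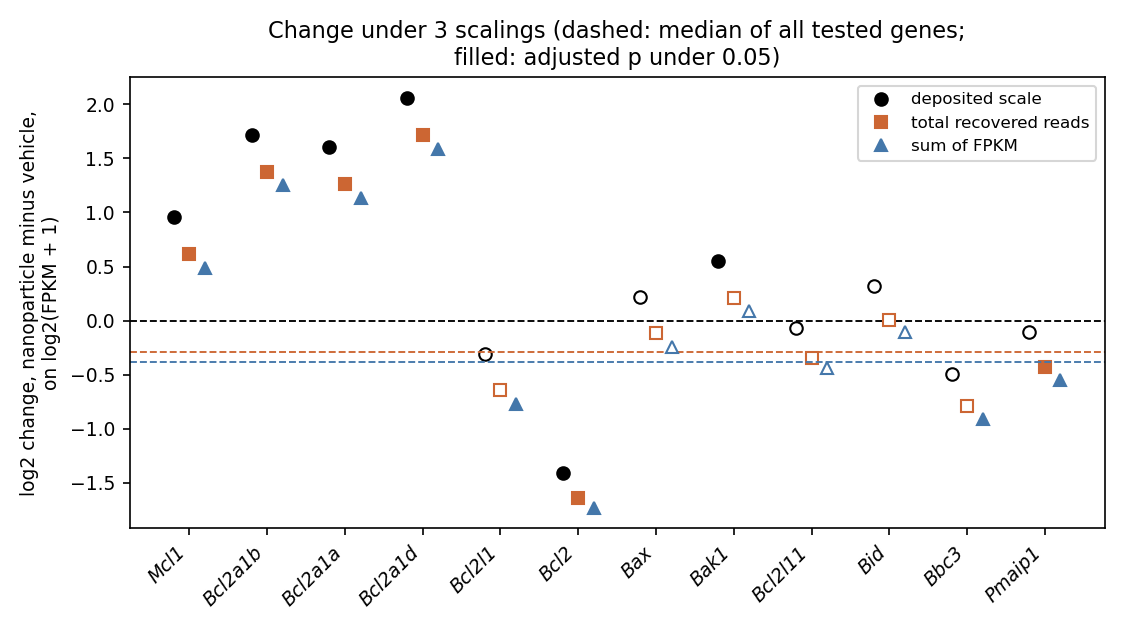
Log2 difference of each member and of Bcl2a1a and Bcl2a1d under 3 scalings of the libraries: as deposited, by total recovered reads, and to the same sum of FPKM, filled where the adjusted p was under 0.05, with the median of all tested genes dashed. Mcl1 and Bcl2a1b stay above 0 and Bcl2 below 0 under each, Bak1 moves toward 0, Bax changes side under both alternatives and Bid with equal sums.

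The deposited values carry a scaling between libraries under which the median tested gene does not move, and the members' differences depend on it. Scaling by total recovered reads put the median of all genes at -0.29, and scaling to equal sums of FPKM put it at -0.39. Calls then went from 1817 higher and 1733 lower to 1096 higher and 3695 lower by total reads (44.5% of the genes tested, 10.2% higher and 34.3% lower). By equal sums they were 863 higher and 4416 lower (48.8%, 7.98% higher and 40.8% lower), and the members' calls read against these shares. Mcl1 (0.61 and 0.49) and Bcl2a1b (1.37 and 1.25) were still called higher under these 2 scalings, and Bcl2 (-1.64 and -1.73) was still called lower. Bak1 was not called under either (0.21, adjusted p = 0.171, and 0.09, adjusted p = 0.634), although relative to the median of all genes it stood at 0.50 and 0.47. Pmaip1 was called lower under both (-0.43, adjusted p = 0.0093, and -0.55, adjusted p = 0.0054), at -0.14 and -0.16 relative to the median. With equal sums Bcl2l1 (-0.77, adjusted p = 0.012) and Bbc3 (-0.91, adjusted p = 0.043) were called lower too.

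Of the other BCL-2 family genes, 14 were in the table and 10 passed the filter. The pair of Bcl2a1 copies given above were called higher and Bok, a relative of BAX and BAK, was called lower. Among all tested genes 33.2% were called in either direction. Bok gave 2.07, 2.47 and 1.98 FPKM in the vehicle and 0.499, 1.12 and 1.30 FPKM in the nanoparticle libraries, with no overlap. Its difference was -0.71 (adjusted p = 0.026), which rested on 15 to 90 reads per library and was lost without the filter on low values (adjusted p = 0.073). It was also lost without vehicle library 1, 2 or 3 (adjusted p = 0.0790, 0.09997 and 0.0710) and without nanoparticle library 2 (adjusted p = 0.053). The rest did not pass: Bmf, a BH3-only gene, at -0.50 (adjusted p = 0.084), Bcl2l2, which encodes the pro-survival BCL-W, at 0.24 (adjusted p = 0.134), Bad, a BH3-only gene, at 0.27 (adjusted p = 0.222), and Bcl2l12, Bcl2l13 and Bnip3l between -0.12 and 0.03. Bnip3, a mitophagy gene known to respond to low oxygen, gave 6.85, 6.41 and 7.30 FPKM in the vehicle and 43.4, 8.83 and 8.73 FPKM in the nanoparticle libraries. Its high value belonged to nanoparticle library 1, and its difference was 1.05 (95% interval -0.37 to 2.46, adjusted p = 0.223). Bmf was called lower when scaled to equal sums of FPKM (-0.77, adjusted p = 0.0099), by total reads (-0.69, adjusted p = 0.020) and without nanoparticle library 2 (-0.66, adjusted p = 0.038). Without nanoparticle library 1 Bnip3 (0.32, adjusted p = 0.0084) and Bad (0.42, adjusted p = 0.0041) were called higher. Bcl2l10, Bik, Bcl2l14 and Bcl2l15 were under the filter, and Hrk was not analysed here.

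Downstream of the mitochondrion, 12 genes of the apoptosome and the caspases were tested, of which 2 were called higher and 4 lower, with a median difference of -0.31. Cycs, which encodes the cytochrome c released through the BAX and BAK pores, gave 21.6, 22.5 and 20.6 FPKM in the vehicle and 33.4, 41.7 and 46.0 FPKM in the nanoparticle libraries (log2 difference 0.86, adjusted p = 0.0047). Parp1, a DNA repair enzyme cut during apoptosis, fell from 13.2 ± 0.598 to 6.60 ± 0.742 FPKM (SD, n = 3 each; log2 difference -0.90, adjusted p = 0.0015). Casp9, the caspase that the apoptosome activates, fell from 8.38 ± 0.621 to 5.41 ± 0.417 FPKM (log2 difference -0.55, adjusted p = 0.0082), a call lost without vehicle library 2 (adjusted p = 0.052). The groups overlapped for none of these 3 genes. The further calls, named after their values were seen, were Htra2 (0.75, adjusted p = 0.045) on the higher side and Casp6 (-0.85, adjusted p = 0.0033) and Dffa (-0.65, adjusted p = 0.0063) on the lower side. Leaving out nanoparticle library 1 gave 3 called higher and 5 lower, with Diablo (0.47) and Xiap (-0.45) added. Among all tested genes 33.2% were called over all libraries and 64.8% without that library. The count without it is therefore near the background. Apaf1, the scaffold of the apoptosome, stood at 0.16 and was not called (adjusted p = 0.493).

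Death receptor genes, which feed the pathway through BID, had 4 of 9 tested genes called higher and none lower, with a median difference of 0.50. On the lower side there were also 0 at an unadjusted p under 0.05 in limma and 0 by limma-voom. Among all tested genes 16.2% were called lower, so no lower call among 9 genes is not far from the background. There were 5 called higher and 1 lower without nanoparticle library 1, with Tradd (0.61) and Ripk1 (-0.27) added. Among all tested genes 17.0% were called higher over all libraries and 34.3% without that library. Fas, a death receptor, gave 3.32, 3.47 and 3.24 FPKM in the vehicle and 10.5, 19.2 and 21.7 FPKM in the nanoparticle libraries (log2 difference 2.00, adjusted p = 0.0019). Cflar, which encodes the caspase-8 inhibitor FLIP, gave 7.98, 8.16 and 8.52 FPKM in the vehicle and 91.8, 40.5 and 32.7 FPKM in the nanoparticle libraries (log2 difference 2.46, adjusted p = 0.0034). Both were higher in every nanoparticle library, and nanoparticle library 1 was the lowest of its group for Fas and the highest for Cflar. The remaining higher calls were Tnfsf10 (1.32), the TRAIL ligand, and Fadd (0.52), an adaptor. Tnfsf10 gave 0.191, 0.211 and 0.164 FPKM in the vehicle and 3.05, 1.54 and 1.54 FPKM in the nanoparticle libraries. It passed the filter only through the group in which it was higher, so its place in the count was partly set by the filter. Casp8 stood at 0.19 (adjusted p = 0.512).

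Of 14 transcription factors known to act on family genes, 9 were called higher and 1 lower, with a median difference of 0.94. The counts without nanoparticle library 1 were 10 higher and 1 lower, with Stat3 (0.43) added. Among all tested genes 17.0% were called higher over all libraries and 34.3% without that library. The NF-kappaB subunits led by adjusted p. Nfkb2 went from 20.6 ± 0.767 to 140.7 ± 28.5 FPKM (SD, n = 3 each; log2 difference 2.70, adjusted p = 1.4e-04), Relb from 5.41 ± 0.178 to 25.4 ± 4.61 FPKM (2.03, adjusted p = 2.7e-04) and Nfkb1 from 9.87 ± 0.569 to 33.6 ± 7.45 FPKM (1.65, adjusted p = 8.0e-04). All 3 were higher in every nanoparticle library than in any vehicle library. The lower call was Foxo3 (-0.81), a forkhead factor known to act on Bcl2l11 and Bbc3. Trp53, which encodes p53, stood at -0.16 (95% interval -0.52 to 0.19, adjusted p = 0.436).

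Among 11 further p53 targets, 7 were called lower and 2 higher, with a median difference of -0.89. With nanoparticle library 1 left out, 8 were called lower and 2 higher, with Phlda3 (-0.58) added. Among all tested genes 16.2% were called lower over all libraries and 30.5% without that library. Trp53inp1 went from 7.78 ± 0.253 to 2.68 ± 0.365 FPKM (SD, n = 3 each; log2 difference -1.26, adjusted p = 4.5e-04), and the stress-induced sestrins Sesn1 (-1.45, adjusted p = 6.1e-04) and Sesn2 (-0.89, adjusted p = 8.0e-04) fell with it. The 2 higher calls were the cell cycle inhibitor Cdkn1a (0.71, adjusted p = 0.010) and Mdm2 (1.09, adjusted p = 0.045), which encodes the ligase that degrades p53. Mdm2 was close to the threshold and gave 124, 59.7 and 51.8 FPKM in nanoparticle libraries 1 to 3. Its difference was 0.70 without nanoparticle library 1 (adjusted p = 9.7e-04). Of the family members known as p53 targets, Bax, Bbc3 and Pmaip1, none was called over all libraries, and Bax was called higher without nanoparticle library 1.

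Genes for the turnover of MCL-1 and BIM proteins gave no call among 4 tested (limma, adjusted p under 0.05), 0 at an unadjusted p under 0.05 and 0 by limma-voom on recovered reads. Without nanoparticle library 1, 2 of them were called lower, Huwe1 (-0.98) and Usp9x (-0.85), whose products add ubiquitin to MCL-1 and remove it. Among all tested genes 33.2% were called in either direction over all libraries and 64.8% without nanoparticle library 1. Thus 2 of 4 is not above the background, and no call among 4 is not far below it. Huwe1 gave 7.68, 7.54 and 7.82 FPKM in the vehicle and 8.14, 3.86 and 2.96 FPKM in the nanoparticle libraries, and its high nanoparticle value was that of library 1.

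Genes of lytic death, the necroptotic and pyroptotic routes that run beside apoptosis, had 5 of 6 tested genes called higher and none lower (0 lower also at an unadjusted p under 0.05 in limma and by limma-voom), with a median difference of 1.76. The counts without nanoparticle library 1 were also 5 higher and 0 lower. On the lower side 16.2% of all tested genes were called over all libraries and 30.5% without that library. The absence of lower calls among 6 genes is therefore not read as a result. Among all tested genes 17.0% were called higher over all libraries and 34.3% without that library. Casp4, which encodes caspase-11, gave 1.95, 2.03 and 2.00 FPKM in the vehicle and 51.3, 27.6 and 26.6 FPKM in the nanoparticle libraries (log2 difference 3.53, adjusted p = 2.5e-04). Ninj1, needed for membrane rupture, rose from 51.8 ± 3.29 to 162.2 ± 23.6 FPKM (1.62, adjusted p = 4.8e-04), and Casp1 from 38.9 ± 1.41 to 160.1 ± 47.0 FPKM (1.98, adjusted p = 9.3e-04; SD, n = 3 each). Mlkl (1.89) and Gsdmd (0.69) were the other calls, and Ripk3 stood at -0.15 (adjusted p = 0.347).

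**Figure D5:**
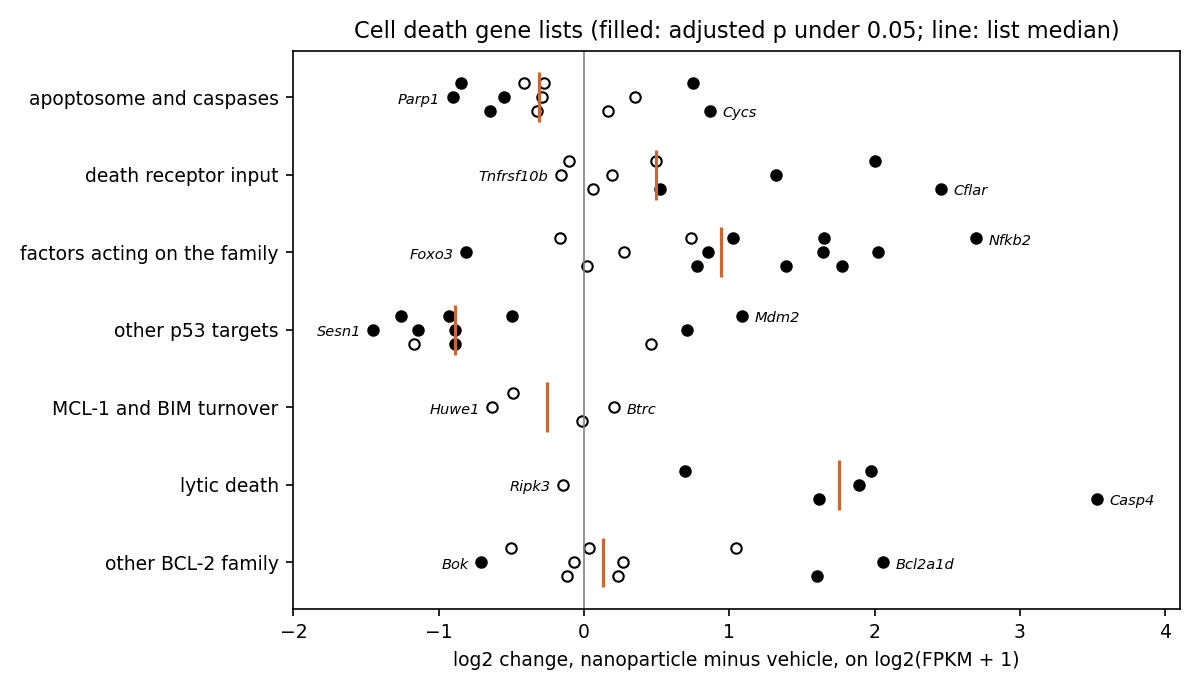
Log2 difference (nanoparticle minus vehicle) of every tested gene in 7 lists around the BCL-2 family, filled where the adjusted p of limma was under 0.05, with the list median as a line. The medians run from -0.89 for other p53 targets to 1.76 for lytic death, and the list of apoptosome and caspase genes has 2 filled points above 0 and 4 below.

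For each member the gene with the most similar pattern was found as the smallest root mean square difference, over the 6 libraries, of log2(FPKM + 1) after subtraction of the vehicle mean. These were Gramd4 for Bcl2 (0.0391), Suclg1 for Bcl2l1 (0.0407), Nlrc4 for Mcl1 (0.0268), Pttg1 for Bcl2a1b (0.0837), Rpl26 for Bax (0.0315) and Crebl2 for Bak1 (0.0241). For the BH3-only members they were Zfc3h1 for Bcl2l11 (0.0437), Zfp874a for Bid (0.0348), Lsp1 for Bbc3 (0.0391) and Nfyc for Pmaip1 (0.0175). The likeness is a description over few libraries and carries no test. Rpl26, a ribosomal protein gene, repeated the pattern of Bax, with 189, 197 and 203 FPKM in the vehicle and 116, 299.8 and 349 FPKM in the nanoparticle libraries.

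The labelled cell type was compared with marker genes. Of 11 dendritic cell markers, Itgax (442 to 456 FPKM in vehicle, 248 to 398 FPKM with nanoparticles) and the antigen presentation genes Cd74 and H2-Ab1 were abundant, whereas Flt3 was at most 0.0793 FPKM in any library. Their summed level was 5419 to 5830 FPKM in vehicle and 3095, 6327 and 6883 FPKM in nanoparticle libraries 1 to 3, and of 10 tested 1 was called higher and 4 lower. Among all tested genes 17.0% were called higher and 16.2% lower. Macrophage markers were present too, among them Csf1r (133 to 175 FPKM over all libraries) and Adgre1 (62.9 to 68.3 FPKM in vehicle, 132 to 276 FPKM with nanoparticles). The summed macrophage markers were 671 to 689 FPKM in vehicle and 835 to 1116 FPKM in nanoparticle libraries, with 3 of 8 tested markers called higher and 3 lower. The summed neutrophil markers were 266 to 299 FPKM and 185 to 257 FPKM, mostly from Mmp8, with 2 of 4 tested called higher and 1 lower, and 6 of the 12 markers, including Ly6g, Mpo and Elane, were under 1 FPKM in all libraries. Csf3r, 1 of the 2 higher calls, passed the filter only through the nanoparticle libraries (at most 0.695 FPKM in vehicle). Likewise Cd209a, among the lower dendritic calls, passed only through the vehicle libraries. Over 10 library measures, the sums of macrophage, of neutrophil and of stromal markers and the sum of all FPKM reached the smallest p of an exact two-sided permutation test with 3 against 3 libraries, 0.1 (Benjamini-Hochberg adjusted p = 0.25). All 6 lymphocyte markers were under 1 FPKM in every library, and the summed mast cell, stromal and erythroid markers were at most 2.60, 2.41 and 0.124 FPKM. The part of a shift in cell types in the differences of the BCL-2 family genes was not tested.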

How the data were processed

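RNA sequencing was compared between 3 vehicle and 3 nanoparticle libraries, grouped by sample title. The authors deposited 2 tables of 1 value per gene and library, and all 140388 values were identical between them. The values the authors deposited were read as FPKM. Headers and labels do not name the unit, which was worked out from the values. With GENCODE M21 merged exon lengths, all members but Pmaip1 became whole read numbers (within 0.01) in every library. Pmaip1 did so with 1323 bases in place of 2732. The library scales found in this way matched median-of-ratios size factors, so the deposited FPKM appear to carry such a scaling, a deduction from the values. Per the submitters' processing notes, CASAVA, STAR 2.5, HTSeq, edgeR 3.16.5 and DESeq2 were used, with the builds hg19 and mm10 listed and no roles given.

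The filter kept genes that reached 1 FPKM in 3 or more libraries (10682), which were tested on log2(FPKM + 1) with limma 3.58.1 in R 4.3.3, with lmFit, eBayes with trend (prior degrees of freedom 2.33) and Benjamini-Hochberg adjustment at 0.05. The procedure was tested on simulated data with the same spread in every library, which does not cover a library that stands apart. The members and gene lists were chosen with earlier results of these data known. Some genes of the caspase list are not reported here, and its counts leave them out. Text names all members, other family genes above the filter, and up to 3 called genes per list by adjusted p, with non-overlapping groups and a mean of at least 5 FPKM in the higher group. It also names the gene with the most similar pattern to each member. Other genes of the pathway lists, such as the further calls, fall outside this rule and were named after their values were seen. Alternatives covered the filter, the number added before the logarithm, scaling, trend, limma-voom, a replicate block and each library left out. Summing the Bcl2a1 copies was added after seeing the data. Library measures used exact permutation tests (scipy 1.17.1). Read numbers speak to counting error alone, because libraries lacked stated molecular identifiers and copies of a molecule may be counted repeatedly.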

Additional observations from a re-analysis of the deposited data

How the results depend on the processing

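Mcl1, Bcl2a1b and Bcl2 kept their direction and stayed past the threshold of limma in every alternative that gave a value, with log2 differences of 0.49 to 0.99, 1.25 to 1.96 and -2.10 to -1.18, and largest adjusted p-values of 0.032, 0.017 and 0.018. A filter at 5 FPKM removed Bcl2 and Bcl2l11. The number of genes called was 3550 over all libraries and ran from 2141 to 6923 when each library was left out in turn. The lowest count was that without vehicle library 3 (2226 without vehicle library 1, 2188 without vehicle library 2), and the highest that without nanoparticle library 1. The thinnest member value, Bcl2 in nanoparticle library 1, rested on 80 reads. The cause of these changes was not tested.

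Directions that turned were all of members or relatives not called over all libraries. With equal sums of FPKM and with total reads, respectively, Bax gave -0.24 and -0.12, Bcl2l2 -0.17 and -0.065, Bad -0.16 and -0.045, and Bnip3l -0.43 and -0.31. Bid gave -0.11 with equal sums. Over the analyses that leave out each library in turn, Bax ran from -0.085 (without nanoparticle library 3) to 0.72 (without library 1) and Bcl2l11 from -0.36 (without nanoparticle library 1) to 0.091 (without library 3). Bcl2l12 ran from -0.32 to 0.11, Bcl2l13 from -0.15 to 0.026 and Bnip3l from -0.042 to 0.070, between these same libraries. Bcl2l11 was also above 0 without nanoparticle library 2 (0.057).

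Deviations from the group means correlated at 0.07, 0.11 and -0.06 between libraries of the same replicate number. Vehicle libraries 1 and 2 each correlated best with the nanoparticle library of their own number. Vehicle library 3 correlated best with nanoparticle library 1 (0.06), and vehicle library 2 nearly as well with nanoparticle library 3 (0.108) as with library 2 (0.113). The numbers were not taken to pair the libraries. With a replicate block, 2785 genes and 4 members were called.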
